A study of Rattus norvegicus with 24 samples.

Results

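Whole-liver RNA of rats (Rattus norvegicus) on day 1 after burn injury was compared with that of sham rats on 6 oligonucleotide arrays, 3 titled as burn and 3 as sham. These arrays were chosen by their titles and are 6 of the 24 in the series, which holds 8 groups. The deposited table has 15923 rows, each holding 1 signal per array for 1 probe set. On day 1 the first 57 rows hold the array controls and were left out, so that 15866 rows were analysed. Strain, age and sex of the rats, the size and depth of the burn, what the sham procedure consisted of, and whether each array came from its own animal are not stated in the labels. The p-values therefore measure only the spread between these arrays, which may be technical.

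The labels of 2 burn arrays disagree with each other. Burn replicates 1 and 3 carry a burn title but a description that speaks of a sham control, while burn replicate 2 has no such description. The titles were followed, and for most of the rows described the value of burn replicate 2, or its difference from the sham mean, is given.

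A large burn sets off a systemic inflammatory response in which cytokines reach the liver. Hepatocytes then take up the synthesis of acute-phase proteins such as haptoglobin, fibrinogen and alpha-2-macroglobulin, and reduce that of albumin and transthyretin. Many drug-metabolizing and lipid-handling enzymes of the liver are also known to change after injury. No value below can be assigned to any of these genes. The probe set names of the table did not match its values, and no order of names was found that did, so hepatocyte markers could not be read and the liver label could not be checked. A row is named here by its place in the deposited table, counted from 1, and is 1 unnamed transcript measured on the same 6 arrays.

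Values are given as log2(signal + 16) after quantile normalization of the 6 arrays, unless a deposited signal is named. On this scale a difference of 1 is a 2-fold difference of signal + 16, and the differences of dim rows are understated. Each SE of a difference is that of limma, in which the variance of a row is drawn toward a value shared by all rows. In rows with a small SD between arrays it is therefore larger than the SDs alone would give. In bulk tissue fewer cells of a type and less RNA per cell cannot be told apart.

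Burn and sham arrays were more alike within than between groups, by a small margin. Over all rows, Pearson correlation between arrays was 0.95 to 0.956 among the 3 sham arrays, 0.945 to 0.95 among the 3 burn arrays, and 0.937 to 0.947 for the 9 pairs of a burn with a sham array. Burn replicates 1 and 3, whose descriptions name a sham control, correlated with the other burn arrays at a mean of 0.948 and 0.947, and with the sham arrays at 0.94 and 0.942. Burn replicate 2 correlated at 0.946 with its own group and at 0.942 with the sham arrays. Its nearest array was sham replicate 2, at 0.947, against 0.946 for burn replicate 1 and 0.945 for burn replicate 3. Rows are not independent replicates, and these correlations are a description.

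The first principal component held 27.6% of the variance and placed all burn arrays on one side, at 34, 20.8 and 25.3 for replicates 1, 2 and 3. The sham arrays lay on the other side, at -33.6, -25.4 and -21.2. The second component held 21.6% and did not separate the groups. It stood at 0.609, -19.3 and 25.6 on sham replicates 1, 2 and 3, and at 6.77, -40.8 and 27.2 on burn replicates 1, 2 and 3. The replicates thus had the same order on it in both groups. Whether arrays of equal number share a batch was not tested. Before normalization the median log2 level was 7.89 ± 0.09 (SD, n = 3) on burn and 7.85 ± 0.11 (SD, n = 3) on sham arrays (two-sided exact permutation p = 0.7, adjusted over 2 tests 1). The interquartile range was 2.31 ± 0.11 (SD, n = 3) in both groups (exact permutation p = 1). With 3 arrays against 3, no exact p can lie below 0.1.

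**Figure D1:**
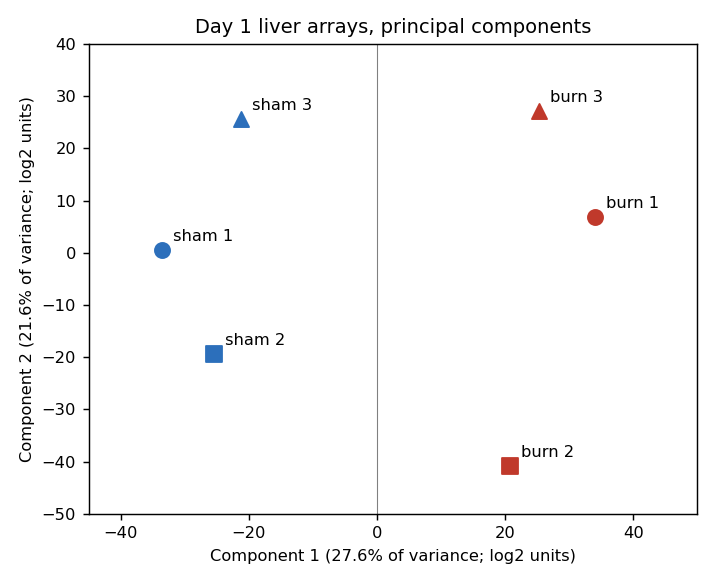
The 6 liver arrays of day 1 on the first 2 principal components of 15866 rows (log2 units), burn in red and sham in blue, with the replicate number beside each point. Burn arrays lie at 20.8 to 34 on the first component and sham arrays at -33.6 to -21.2. The second component spreads both groups, with the replicates in the same order.

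No row passed the test. Limma, fitted to the 6 arrays, called 0 of 15866 rows (0%) at an adjusted p under 0.05, and the smallest adjusted p was 0.0562. Under an adjusted p of 0.1 lay 79 rows (0.498% of all), 33 of them higher and 46 lower in burn. An unadjusted p under 0.05 was reached by 1794 rows (11.3%), 865 higher and 929 lower in burn. With median scaling these were 633 higher and 974 lower. The count of calls was 231 with an intensity trend and robust variance in the same tool, 84 when the 10578 brighter rows alone were fitted and 62 with a pseudocount of 64. The largest of these counts held 125 rows higher and 106 lower in burn.

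The difference between burn and sham was small for most transcripts. Its median over all rows was 0.01, and 90 in 100 rows lay between -0.7 and 0.66. With 3 arrays against 3, groups without a difference would fail to overlap at a rate of 0.1 per row. In 2977 rows (18.8%) the 3 burn and the 3 sham arrays did not overlap, 1527 of them with burn higher and 1450 with burn lower. Of these, 160 rows were at least 2-fold higher in burn (1.01% of all rows) and 204 at least 2-fold lower (1.29%). Among those 364 rows, 344 differed by 2-fold to 4-fold, 148 of them higher. Another 18 rows differed by 4-fold to 8-fold, 10 of them higher. Differences of over 8-fold were seen in 2 rows, both higher in burn. With median scaling the separated 2-fold rows were 135 higher and 238 lower. A further 147 rows differed by at least 2-fold while their arrays overlapped. Of the 364 rows, 345 had an unadjusted p under 0.05 in limma and 78 an adjusted p under 0.1.

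**Figure D2:**
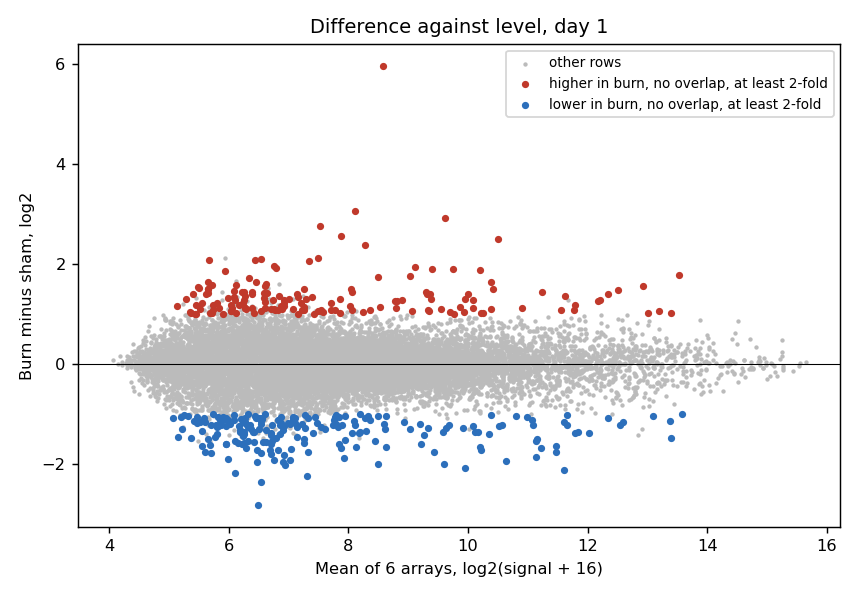
Burn minus sham (log2) against the mean level of the 6 arrays (log2(signal + 16)) for 15866 rows, with the 160 rows at least 2-fold higher and the 204 at least 2-fold lower in burn without overlap in colour. One row stands far above the rest at 5.97, and the widest scatter lies at low levels.

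The largest difference of day 1 was that of row 1829, a transcript near the floor in sham and bright in burn liver. Its deposited signal was 9.5, 27.1 and 88.9 on sham replicates 1, 2 and 3, and 2751.8, 6387.9 and 1592.3 on burn replicates 1, 2 and 3. Every burn array thus lay far above every sham array, and the highest burn value came from replicate 2. On the log2 scale the sham mean was 5.60 ± 1.01 (SD, n = 3) and the burn mean 11.57 ± 0.94 (SD, n = 3). They differed by 5.97 ± 0.63 (SE), and limma's adjusted p was 0.0745. The size ran from 4.95 with a pseudocount of 64 to 6.69 with a pseudocount of 1. The next row of the table, 1830, followed the same order of burn arrays at a higher sham level. It read 8.24, 8.41 and 7.80 in sham and 11.29, 11.69 and 10.27 in burn, a difference of 2.93 ± 0.38 (SE; limma adjusted p = 0.0757). Burn replicate 2 was again the highest and replicate 3 the lowest of the burn arrays.

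Row 2273 was higher in burn by 3.07 ± 0.34 (SE; limma adjusted p = 0.0745). It read 6.09, 6.96 and 6.66 in sham and 9.13, 10.20 and 9.60 in burn, so that the groups were separated by more than the whole range of either. Row 13959 differed among moderately bright transcripts, with deposited signals of 779.1, 612 and 454.5 in sham and 3645.7, 4895.5 and 2320.7 in burn. That is a difference of 2.51 ± 0.31 (SE; limma adjusted p = 0.0757), and its burn arrays had the same order as in rows 1829 and 1830. Row 5752 stood at 6.18, 6.83 and 6.29 in sham and at 8.50, 8.86 and 8.32 in burn (difference 2.13 ± 0.24, SE; limma adjusted p = 0.0745). Row 15529 was near the floor in sham, with signals of 3.3, 7.8 and 15.9, and read 87.7, 90.2 and 87.7 in burn. Its difference of 2.09 on the log2 scale ran from 1.07 with a pseudocount of 64 to 3.36 with a pseudocount of 1.

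The other 4 of the 10 rows with the largest differences upward were less even between arrays, with limma adjusted p of 0.135 to 0.26. In row 2010 sham replicate 2 was near the floor at 4.71, against 6.80 and 6.91 on the other sham arrays and 8.84, 8.55 and 9.30 in burn. Its difference of 2.76 was 2.04 without that array. In row 2169 burn replicate 2 stood close to the sham arrays, at 8.05 against 7.57, 6.87 and 6.81, while burn replicates 1 and 3 read 10.16 and 10.20. The difference of that row was 2.39, and 0.96 when burn replicate 2 alone was set against the sham mean. Row 7248 read 6.87, 7.24 and 5.69 in sham and 8.87, 8.82 and 9.77 in burn, a difference of 2.56. Row 9048 read 4.76, 6.56 and 5.18 in sham and 8.25, 6.98 and 7.56 in burn, a difference of 2.09 that was 1.34 with a pseudocount of 64. In 7 of these 10 rows the sham mean lay below 6.67, the 25th percentile of all rows.

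Downward, the largest difference at the pseudocount used was that of row 1630, which was clearly measured in sham and near the floor in burn. Its deposited signals were 226.6, 168.3 and 274.9 in sham and 13.3, 25.1 and 14 in burn. The sham mean was 7.90 ± 0.22 (SD, n = 3) and the burn mean 5.08 ± 0.39 (SD, n = 3), and burn minus sham was -2.82 ± 0.24 (SE; limma adjusted p = 0.058). Row 5664 had the same form, with 7.94, 7.85 and 7.40 in sham and 5.26, 5.60 and 5.23 in burn (difference -2.37 ± 0.21, SE; limma adjusted p = 0.058). The sizes of both rows depended on the pseudocount, being -1.80 and -1.54 with one of 64. At that setting rows 1460, 1461 and 2275, at -2.10, -1.98 and -1.86, stood further apart than row 1630. Row 5487 was tight in sham, at 8.36, 8.48 and 8.44, and spread in burn, at 5.72, 6.79 and 6.04 (difference -2.24 ± 0.28, SE). Row 1974 read 7.85, 7.84 and 7.98 in sham and 6.05, 5.43 and 6.27 in burn (difference -1.97 ± 0.24, SE).

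Rows 1460 and 1461, neighbours in the table, were lower in burn at levels well above the floor. Row 1460 had deposited signals of 6803.5, 5950.6 and 6373.3 in sham and 1092.7, 1406 and 1989 in burn, and differed by -2.13 ± 0.26 (SE; limma adjusted p = 0.0757). Row 1461 had signals of 2162.9, 1882 and 2052.9 in sham and 440.7, 509.4 and 442.6 in burn. Its groups were even, at 10.99 ± 0.12 (SD, n = 3) and 8.91 ± 0.13 (SD, n = 3). The difference of row 1461 was -2.08 ± 0.16 (SE), and its limma adjusted p of 0.0562 was the smallest of all rows. Its size ran from -2.16 to -1.98 over 15 alternatives, 6 of which called it, and was -1.93 with burn replicate 2 as the only burn array.

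The remaining 4 of the 10 rows with the largest downward differences had limma adjusted p of 0.131 to 0.263. Row 2275 stood at 10.40, 10.11 and 11.27 in sham and at 7.83, 8.81 and 9.15 in burn, a difference of -2. It lies 2 places after row 2273, which differed the other way. In row 1045 burn replicate 2 stood at 8.63, close to the sham values of 9.09, 10.08 and 9.35, while burn replicates 1 and 3 read 6.94 and 6.91. Its difference was -2.02, and -0.88 for burn replicate 2 alone. Row 13410 differed by -2.18, with sham values of 6.53 to 7.97 and burn values of 5.31, 4.73 and 5. Row 13248 differed by -2.02, with sham values of 7.18 to 8.63 and burn values of 6.34, 5.94 and 5.52. In 6 of the 10 rows the burn mean lay below the 25th percentile of all rows.

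**Figure D3:**
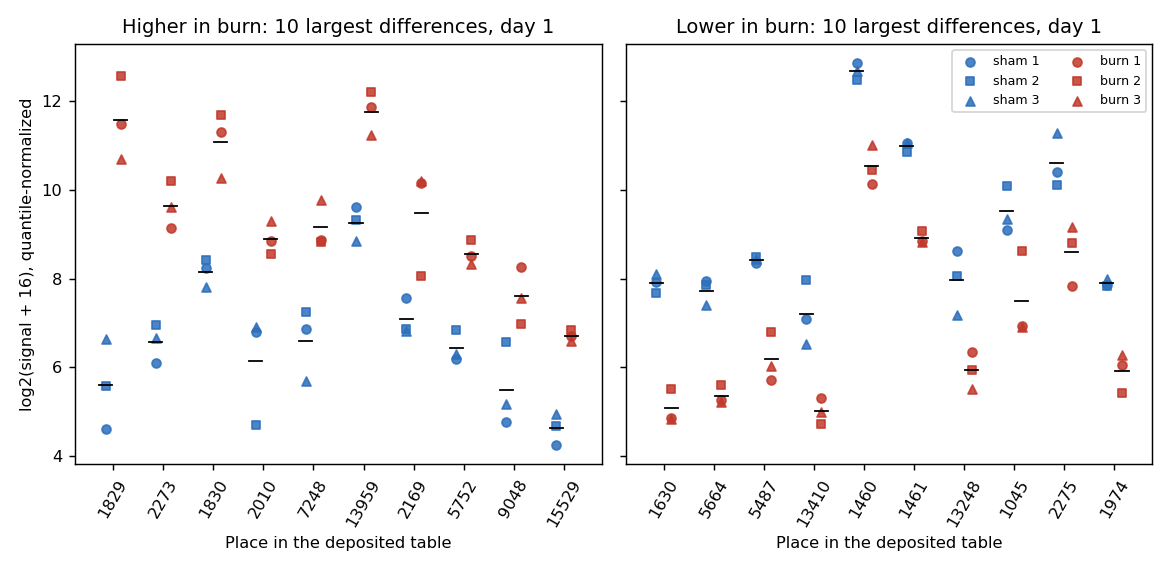
Level of each array (log2(signal + 16), quantile-normalized) in the 10 rows with the largest differences upward (left) and downward (right) among rows without overlap, sham in blue and burn in red, with the symbol giving the replicate and the bar the group mean. Row 1829 spans 4.61 to 12.56, and in rows 2169 and 1045 burn replicate 2 lies apart from the other burn arrays, toward sham.

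The rows with the smallest p were not all among the largest differences. The row with the next smallest p after row 1461 was 5793, a transcript at the 99.2 percentile of level. Its deposited signals were 5755.3, 6799.7 and 6295.8 in sham and 23218.3, 25816.5 and 23801.9 in burn. The sham mean was 12.64 ± 0.04 (SD, n = 3) and the burn mean 14.42 ± 0.04 (SD, n = 3), a 3.42-fold difference (log2 difference 1.77 ± 0.14, SE; limma adjusted p = 0.0562). This difference ran from 1.75 to 1.95 over 15 alternatives, 5 of which called it, and was 1.80 with burn replicate 2 as the only burn array. Among the 10 rows with the smallest p, 3 belonged to the largest upward and 3 to the largest downward differences. Rows 5193, 1340 and 15168 were also among them, lower in burn by -1.94, -1.56 and -1.50. Their signals in burn were near the floor, at 35.1 to 42.5, 32.6 to 33.2 and 10.8 to 16, and burn replicate 2 alone differed from the sham mean by -1.70, -1.42 and -1.57. The sizes of rows 1340 and 15168 were -1 and -0.77 with a pseudocount of 64.

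The 79 rows with an adjusted p under 0.1 in limma had a median level of 9.32, against 7.04 for the 364 rows separated by at least 2-fold. The 33 of them that were higher in burn differed by 1.05 to 5.97, with a median of 1.44, and had a median level of 9.75. The 46 that were lower differed by 0.97 to 2.82 in size, with a median of 1.61, and had a median level of 7.57. All but 1 of the 79 were separated by at least 2-fold.

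Of the bright transcripts at least 2-fold apart without overlap, the 5 brightest in each direction are described. Besides row 5793, row 6022 stood at 12.63, 12.73 and 12.63 in sham and at 13.83, 13.69 and 13.63 in burn, a difference of 1.05 ± 0.15 (SE; limma adjusted p = 0.0849). Rows 2174 and 4412 differed by 1.03 ± 0.18 and 1.01 ± 0.22 (SE), with burn values of 13.38 to 13.73 and 13.72 to 14.03. Burn replicate 2 alone lay 1.23 and 1.05 above the sham mean. The difference of row 4412 was 0.81 without sham replicate 2, which was lower than the other sham arrays at 12.47. Row 5777 reached 2-fold through 1 array, and its groups overlapped as deposited. After quantile normalization burn replicates 1 and 3 read 13.28 and 13.29, barely above sham replicates 2 and 3 at 13.25 and 13.23. Sham replicate 1 read 9.98 there, with a deposited signal of 1008.4, against 10111.5 and 9254.9 on the other sham arrays and 10080.2, 28245.2 and 9882.6 in burn. Its difference of 1.55 became 0.47 without sham replicate 1.

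In the other direction row 3552 was the most even of the bright rows. Its signals were 13593.6, 18967.8 and 19723 in sham and 5958.7, 6353.9 and 7579.6 in burn, a difference of -1.49 ± 0.18 (SE; limma adjusted p = 0.0757). Rows 1533, 1456, 5008 and 2521 were lower by -1.17, -1.15, -1.04 and -1.01, with limma adjusted p of 0.165 to 0.222. Burn replicate 2 alone differed from the sham mean by -0.65, -1.42, -1.12 and -1 in these rows. In row 1533 burn replicate 2 read 12.53, above burn replicates 1 and 3 at 11.76 and 11.74 and below the sham values of 13.01 to 13.42.

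Once quantile-normalized, the most abundant transcripts of all showed no difference of 2-fold. Among the 100 brightest rows the differences then ran from -0.60 to 0.89 with a median size of 0.14. Their median difference was -0.01 after this normalization and 0.29 as deposited, where the range was not read. Among the 300 brightest, a separated 2-fold difference was seen in 5 with burn higher and 4 with burn lower, and 47.3% had no overlap, against 18.8% of all rows. The largest difference among the 10 brightest was that of row 4751, with signals of 22431.9, 32037 and 34929.5 in sham and 52535.3, 56427.9 and 51428.8 in burn. After normalization it stood at 15.02 ± 0.02 (SD, n = 3) and 15.50 ± 0.04 (SD, n = 3), a difference of 0.48 ± 0.14 (SE; limma adjusted p = 0.315). This difference ran from 0.45 to 0.87 over 15 alternatives, 1 of which called it, and the largest was with values as deposited.

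The direction at the bright end turned on the scaling. As deposited, the mean signal of the 10 brightest rows was 27300, 38500 and 45500 on sham replicates 1, 2 and 3, and 51500, 51600 and 49500 on burn replicates 1, 2 and 3. The 3 burn arrays were thus close together and above each sham array, while the sham arrays were graded. In 9 of these 10 rows all burn signals lay above all sham signals as deposited, and the median difference was 0.43. Row 580, the brightest, had signals of 30732.9, 45865.7 and 57764.3 in sham and 63439.4, 62464 and 59629.4 in burn. After quantile normalization, which gives every array the same brightest values, the median difference of the 10 rows was -0.01 and 5 of them were lower in burn.

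The gap was widest at the top of the range. The median difference as deposited was 0.36 over the 50 brightest rows, 0.29 over 100, 0.18 over 300 and 0.01 over all rows. The last 10 of the 300 brightest rows had mean signals of 7010, 7510 and 7510 on the sham arrays and 6830, 6950 and 6960 on the burn arrays. Of the 50 brightest rows, 49 were higher in burn as deposited, 27 of them without overlap. The cause of this gap was not tested.

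**Figure D4:**
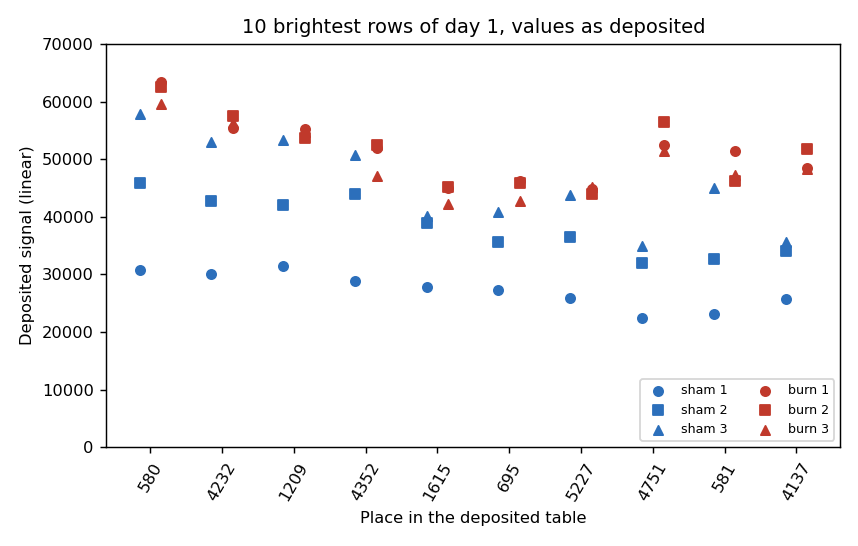
Deposited signal (linear) of the 10 brightest rows on each of the 6 arrays, sham in blue and burn in red, the symbol giving the replicate. In every row sham replicate 1 is the lowest, at 22431.9 to 31495.6, and the burn arrays lie between 42304.5 and 63439.4.

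Separation of the groups was more frequent at high levels. The rows were put in 10 classes of nearly equal size by their mean level. In the brightest class, above a level of 10.38, burn and sham did not overlap in 41% of rows and 22% had an unadjusted p under 0.05. In the dimmest class, below 5.61, these shares were 11.6% and 6.31%. The 11.6% lies close to the rate of 0.1 that groups without a difference would give on average, which any given labelling of the arrays need not keep. The median of limma's SE of a difference, drawn toward a shared value, was 0.17 in the brightest class and 0.43 in the class from 5.61 to 6.36. Median SD between arrays was 0.13 in burn and 0.16 in sham in the former, and 0.60 and 0.55 in the latter. Over all rows it was 0.253 in burn and 0.254 in sham, and burn had the larger SD in 50.1% of rows.

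The larger differences were most frequent at low levels above the dimmest class, which held 12 separated 2-fold rows higher and 16 lower in burn. In the second dimmest class 35 rows with a separated 2-fold difference were higher and 44 lower in burn, and in the class from 6.36 to 6.94 these were 29 and 41. The seventh class held 5 and 11, and the brightest class 19 and 27. Of the 79 rows with an adjusted p under 0.1 in limma, 24 were in the brightest class and 14 in the next. Of the 160 rows higher in burn, 90 had a sham mean below the 25th percentile of all rows, and 31 of these also a burn mean below it. Of the 204 rows lower in burn, 119 had a burn mean below that level, and 37 of these also a sham mean below it. With both means above it there were 70 rows higher and 85 lower.

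**Figure D5:**
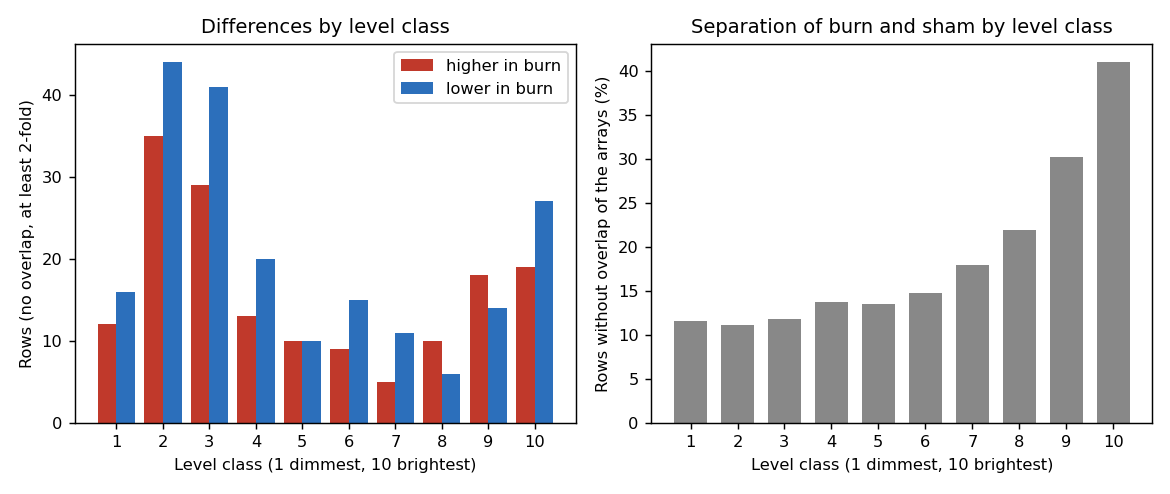
Left, rows at least 2-fold higher (red) or lower (blue) in burn without overlap in each of 10 classes of mean level, from dimmest to brightest; right, percent of rows in each class whose burn and sham arrays did not overlap. The counts peak at 35 and 44 in the second class, while the share without overlap goes from 11.6% in the dimmest to 41% in the brightest class.

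Each array was then left out in turn, rows without overlap and at least 2-fold apart were chosen on the other 5, and the array left out was read in them. Without burn replicate 2, 591 rows were chosen. Burn replicate 2 lay on the burn side of the sham mean in 460 of them (77.8%) and beyond all sham arrays in 374 (63.3%). For burn replicate 1 the shares were 80.6% and 66.6% of 557 rows, and for burn replicate 3 they were 81.1% and 65.2% of 607 rows. Sham replicates 1, 2 and 3, left out in the same way, lay on the sham side of the burn mean in 86.1%, 84.1% and 80.4% of rows. The arrays left out showed smaller differences than those used to choose the rows, with a median size of 0.65 against 1.27 for burn replicate 2, 0.83 against 1.24 for burn replicate 1 and 0.71 against 1.27 for burn replicate 3. The arrays of the other group served both to choose the rows and to read them. As the 5 arrays used already lay apart, the one left out would often fall on its own side even if labels meant nothing. These shares are a description only.

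The 3 burn arrays were about equally often the most distant from sham in the separated rows. These rows were chosen because every burn array lay beyond every sham array. That keeps out rows in which only 1 burn array did so. The size can still rest largely on 1 array, as in row 5777. Among the 160 rows higher in burn, replicates 1, 2 and 3 were the highest burn array in 49, 59 and 52 rows and the lowest in 43, 55 and 62. Among the 204 rows lower in burn, they were the lowest in 72, 73 and 59 rows. The median difference from the sham mean was 1.32, 1.28 and 1.29 in the former and -1.37, -1.33 and -1.27 in the latter.

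In some transcripts 1 array stood apart from the other 5. With the other 5 arrays within 1 log2 unit, an array lay at least 2 units below their median in 19, 16 and 15 rows on burn replicates 1, 2 and 3, and in 10, 6 and 7 rows on sham replicates 1, 2 and 3. Such high values were fewer, at 4, 7 and 3 rows in burn and 3, 5 and 2 in sham. The widest gap was in row 5762, where sham replicate 1 had a signal of 16.2 against 351.9 to 440.5 on the other arrays.

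Differences of rows next to each other in the table were mostly unrelated. The correlation between neighbouring rows was weak for the level, at 0.293, and close to none for burn minus sham, at 0.0262. For the level it was 0.238 at a distance of 10 places. Of the 364 rows with a separated 2-fold difference, 12 pairs were neighbours, 8 pairs differing in the same direction and 4 in opposite directions. At a distance of 3 places there were 18 such pairs, 11 of them in the same direction. At 10 places 2 of 8 pairs, at 100 places 1 of 4 and at 1000 places 5 of 10 had the same direction. A few neighbours were alike in size. Besides rows 1829 and 1830 and rows 1460 and 1461, rows 5751 and 5752 were higher in burn by 1.96 and 2.13. Rows 4705 and 4706 were lower by -1.87 and -1.50 and shared a low value on burn replicate 3, which read 8.88 and 9.65 against 10.55 and 10.63 on burn replicate 1 and 11.19 and 10.91 on burn replicate 2. Rows 9682 and 9683, both bright, went opposite ways by -1.38 and 1.07. Whether such neighbours stem from the same gene cannot be read from the table.

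The 5 rows whose pattern over the 6 arrays was most like that of row 1829 were rows 7785, 7510, 209, 5935 and 15529, with Pearson correlations of 0.9939 to 0.9987. They shared its order in burn, with replicate 2 the highest and replicate 3 the lowest. Their differences were 1.28, 0.83, 0.76, 0.87 and 2.09, far below the 5.97 of row 1829. Row 7785 had signals of 595.8, 661.5 and 798.7 in sham and 1534, 1990.9 and 1481 in burn. A correlation over 6 arrays picked from 15866 rows is a description of likeness only.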

How the data were processed

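RNA of whole liver was measured on 24 arrays, of which the 6 of day 1 were used, grouped by title. The deposited values are linear array intensity, 1 per probe set, made by the authors; their software was not given in the sources used here. Trimming 2% from each end gave a mean of 500 on all 6 arrays, so each had been scaled to a common level. The first 57 rows were left out. Values were taken to log2(signal + 16) and quantile-normalized over the 6 arrays. Burn minus sham was fitted with limma 3.58.1 in R 4.3.3 (lmFit, eBayes; 4 residual degrees of freedom) over 15866 rows with Benjamini-Hochberg adjustment, and a row was called at an adjusted p under 0.05. The fit was run on simulated data with independent rows. That check set a limit only on the mean size of added differences, so it does not bear on the count of calls. The number of arrays limits the precision.

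No gene was named from a row name; other orders of the names were tried without a match. Rows described were the 10 largest differences each way without overlap, the 10 smallest p, the 5 brightest at least 2-fold apart each way, the 10 brightest and the 5 most like the largest. Rows 5751, 4705, 4706, 9682, 9683 and 5762 were picked, and arrays left out and read, lone arrays, neighbouring rows and bright rows as deposited examined, after values were seen. The comparison, the rules and the lists were chosen with earlier results of these data known.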

Additional observations from a re-analysis of the deposited data

How the results depend on the processing

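Against 0 rows called by limma, there were 62 with a pseudocount of 64, 4 with values as deposited, 3 with median scaling, 84 when only the 10578 brighter rows were fitted, 4 with array weights and 231 when the variance was robust and followed the intensity. It stayed at 0 with a pseudocount of 1, with the first 57 rows kept, in a test against a log2 difference of 1 and with any 1 array left out. The count at an unadjusted p under 0.05 (1794) ran from 1400 without sham replicate 1 to 2088 with the robust variance. The 364 rows separated by at least 2-fold became 156 with a pseudocount of 64 and 175 among the 10578 brighter rows, where fewer rows are tested, and 512 to 607 with 1 array left out, where separation is easier to reach. The width between the 5th and 95th percentiles of the difference (1.37) was 1.71 and 1.00 with pseudocounts of 1 and 64, 1.15 among the brighter rows, 1.80 with burn replicate 2 as the only burn array, and 1.45 to 1.52 with 1 array left out. That 1 burn array allowed sizes only, so no counts were made from it. As a replicate block the numbers of the titles gave 0 calls and 1675 rows at an unadjusted p under 0.05 in limma. Deviations of equal numbers correlated at -0.0392, 0.103 and 0.0671 for replicates 1, 2 and 3. Those of unequal numbers were not correlated, so these values cannot show whether arrays of equal number belong together. The main fit did not pair them.

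For 43 of the rows described, 420 values were read under other settings and 258 with an array left out. Of these 43, no row that was 2-fold apart changed direction, but the rows were chosen on the same arrays. In the 10 brightest rows, 5 went from lower to higher in burn with values as deposited, at 0.40, 0.33, 0.33, 0.40 and 0.37. The causes were not tested.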
